A study of Mus musculus with 8 samples.

Results

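The ventral spinal cord holds motor neurons and several classes of interneuron, and each class is set apart by transcription factors switched on as its cells are born. The 9 factors described here are En1, Vsx1, Sox14, Gata2, Gata3, Evx1, Sim1, Pax2 and Foxd3, which mark the classes called V0, V1, V2 and V3 or are shared between them. They were chosen by name, with earlier results of these data known. All 9 were found among the 55471 Ensembl gene identifiers of the deposited count table, and 7 passed the filter on low counts that was applied before testing. Evx1 and Vsx1 did not pass it and are given as values only.

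The RNA came from mouse motor neurons made from HBG3 embryonic stem cells, which carry green fluorescent protein under the promoter of Hb9 (Mnx1), a motor neuron gene. Cells were kept for 3 days after dissociation and plating. Such cultures are mixed, and the labels mention no sorting of the fluorescent cells. Biotinylated antisense probes of 20 nt, in a set called ODD and another called EVEN, were used to pull down the long noncoding RNA Lhx1os in all its isoforms. LacZ probes, against a bacterial mRNA, served as the negative control. Input was not captured. Each of the 4 groups had 2 libraries, replicate 1 and replicate 2, which the labels give as batches and the series as independent experiments. Libraries with the same number were treated as coming from 1 culture. All groups share the same cell line, reporter and type of culture. By design, pull-downs differ from Input in capture, and ODD and EVEN differ from LacZ in the probes. Libraries also differed in total count, and some calls changed when a trend on GC content was removed. Total counts were between 7632775 and 24628435 per library, and Input had the larger ones. The targeted RNA was recovered: Lhx1os had between 16 and 61 counts in a library of Input or LacZ, and between 283 and 2239 in a library of ODD or EVEN. In bulk RNA, fewer cells of a class and less RNA per cell cannot be told apart.

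As background, V2 precursors make Vsx1 and then divide into excitatory V2a and inhibitory V2b cells. V2b cells are specified by the zinc-finger factors Gata2 and Gata3 together with Tal1, and Sox14, an HMG-box factor, is found in the V2 lineage. En1 is the homeodomain factor that defines inhibitory V1 cells, and Foxd3, a forkhead factor, is found there and in neural crest. Pax2 is a paired-box factor of several inhibitory classes, Evx1 a homeodomain factor of commissural V0 cells, and Sim1 a bHLH-PAS factor of excitatory V3 cells, which arise from progenitors with Nkx2-2. None of these genes is specific to the spinal cord.

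The capture probes were antisense to Lhx1os, so a stretch of another RNA identical to Lhx1os is one that a probe could also pair with. The longest such exact stretches in annotated transcripts are shown as a description. They do not bound the resemblance to the target, since stretches with a mismatch or gap and sequence outside annotated transcripts were not searched. Probe sequences were not used, so pairing with a probe was not assessed. The stretch shared with an Lhx1os isoform is in capitals, in the orientation of the RNA, with 8 bases on either side. Sequences are from GENCODE M21 on GRCm38.
Evx1, 3' UTR, chromosome 6 from 52317890 to 52317902, plus strand: cacacagcCTGATTAGCAAGTgatgggtg
Vsx1, coding sequence, chromosome 2 from 150688894 to 150688906, minus strand: ccctggcgCCAGGCTGTCCTCccaccggc
Gata2, exon of a retained-intron transcript, chromosome 6 from 88201210 to 88201221, plus strand: gggcgtggGGGAGAATGGAGgctgtagg
Sim1, 3' UTR, chromosome 10 from 50988096 to 50988107, plus strand: cttaaaaaAAGAAAGAAAGTtctctaaa
Gata3, coding sequence, chromosome 2 from 9858625 to 9858635, minus strand: cctgactaTGAAGAAAGAAggcatcca
The longest matches were thus 13 nt in Evx1 and Vsx1, 12 nt in Gata2 and Sim1, and 11 nt in Gata3, En1, Pax2 and Foxd3, with 10 nt in Sox14. Each was shorter than a probe of 20 nt. Matches at least as long were found in 22.4% of the 16509 genes searched for 13 nt, in 41.0% for 12 nt and in 71.1% for 11 nt. Stretches that could pair with Lhx1os itself, that is, matches to its reverse complement, were 13 nt long in Vsx1 and 10 or 11 nt in the others. A match of 13 nt to the reverse complement was found in 19.7% of the genes searched. Longer transcripts hold longer matches by length alone, so these shares are a description.

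In Input, Gata3 and Gata2 were the most abundant members per unit of length. Gata3 (ENSMUSG00000015619, chromosome 2 from 9857078 to 9890034) was at 7.86 and 10.6 FPKM, the authors' measure, which scales a count by gene length and library total. Gata2 (ENSMUSG00000015053, chromosome 6 from 88193891 to 88207032) was at 4.90 and 6.67 FPKM. The libraries of these genes did not overlap each other or those of any other member. The median of the 16524 genes tested was 5.22 FPKM, and 64.6% and 52.5% of those genes lay below Gata3 and Gata2.

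The markers of V1 cells (En1) and of several inhibitory classes (Pax2) came next, together with Sox14 of the V2 lineage. En1 (ENSMUSG00000058665, chromosome 1 from 120602418 to 120607992) was at 1.38 and 2.94 FPKM in Input. Pax2 (ENSMUSG00000004231, chromosome 19 from 44756045 to 44837871) was at 0.668 and 1.41 FPKM, and Sox14 (ENSMUSG00000053747, chromosome 9 from 99874106 to 99876170) at 1.40 and 1.27 FPKM. En1 stood above Pax2 within each Input library, though the ranges of these genes overlapped. Sox14 was above both in replicate 1 and below both in replicate 2, so its place beside them is not set by these libraries.

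Sim1 and Foxd3 had lower means and overlapped each other, and Sim1 also overlapped Pax2. Sim1 (ENSMUSG00000019913, chromosome 10 from 50894754 to 50989152) was at 0.777 and 0.396 FPKM in Input, and Foxd3 (ENSMUSG00000067261, chromosome 4 from 99656299 to 99658622) at 0.577 and 0.566 FPKM. Evx1 (ENSMUSG00000005503, chromosome 6 from 52313498 to 52318378) was at 0.0847 and 0.203 FPKM. Vsx1 (ENSMUSG00000033080, chromosome 2 from 150680702 to 150689360) was at 0.0321 and 0.103 FPKM, the lowest mean of the set, and overlapped Evx1. Per count rather than per length, Sim1 stood above Sox14, since its exons sum to 8621 bases against 2065.

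**Figure D1:**
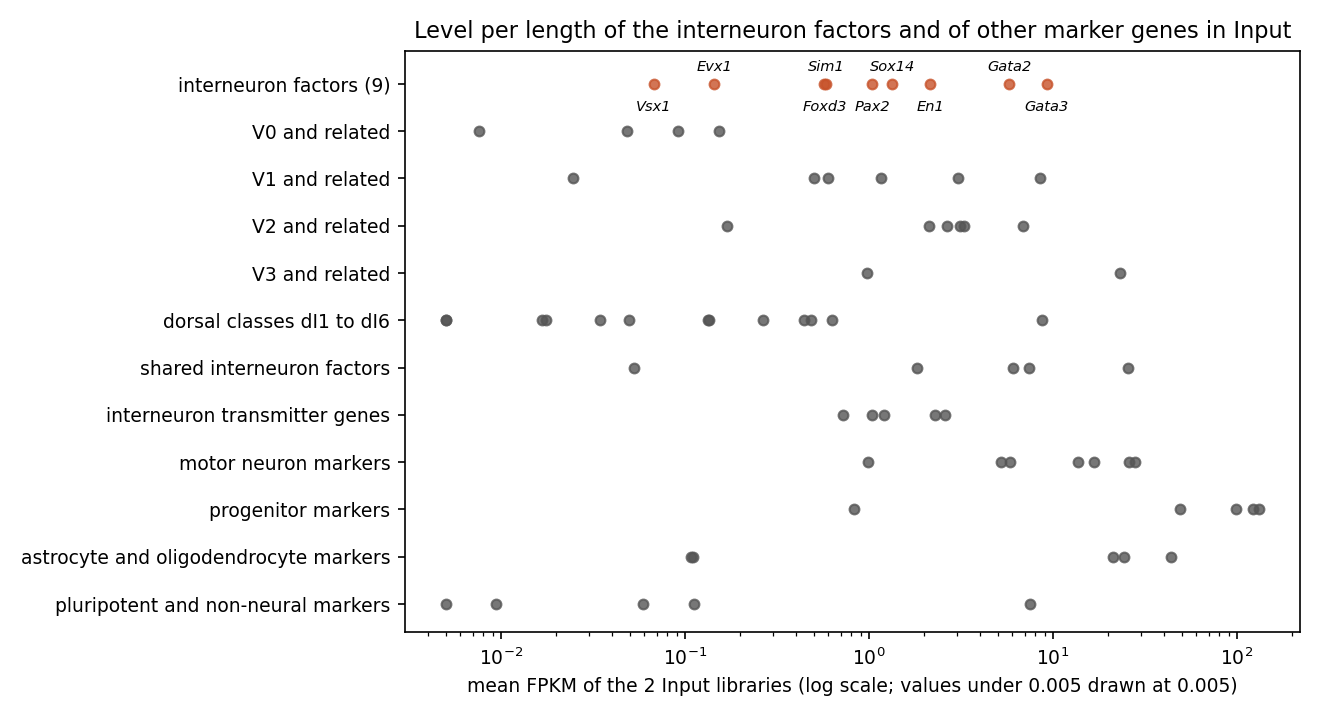
Mean FPKM of the 2 Input libraries on a log axis, 1 point per gene, for the 9 interneuron factors (top row, named) and for the other marker lists; values under 0.005 are drawn at 0.005. Gata3 and Gata2 reach the range of the lower motor neuron markers, while Evx1 and Vsx1 lie near the low end of their own set.

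The markers of the labelled cell type were present, 4 of the 7 with a higher mean than any interneuron factor. In Input the motor neuron genes Mnx1, Isl1 and Lhx4 had mean FPKM of 25.9 ± 6.72, 16.7 ± 8.63 and 13.7 ± 1.81 (SD, n = 2), and the acetylcholine transporter gene Slc18a3 27.7 ± 10.8. Of the other three, Slc5a7, a choline transporter gene, was at 5.84 ± 4.34 FPKM and Chat, the enzyme that makes acetylcholine, at 5.23 ± 3.59, both below the mean of Gata3. Isl2, a motor neuron factor, was at 0.989 ± 0.770, below the means of 5 of the 9 interneuron factors. Progenitor and glial genes were present too, with Olig2 at 99.1 ± 64.0, Sox2 at 122 ± 37.8 and Sox10 at 43.96 ± 38.2 FPKM. Of the markers of pluripotent and non-neural cells, Pou5f1 had no count in any library and Sox17 had 1 in each Input library and none in a pull-down. Col1a1, a fibroblast collagen gene, was at 7.51 ± 2.80 FPKM in Input. Which cells made the interneuron factors was not measured.

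Other genes of the same classes were looked up in a list of 41, of which 27 passed the filter on low counts. Among the 3 with the highest Input level were Nkx2-2 at 23.1 ± 12.9 FPKM (SD, n = 2), the factor of V3 progenitors that oligodendrocyte precursors also use, and Lmx1b at 8.72 ± 3.37, a factor of dorsal dI5 cells and of hindbrain neurons. Tal1, the partner of Gata2 and Gata3, was at 3.13 ± 0.511 FPKM. Among dorsal factors, Ptf1a had no count in any library and Atoh1 had 1 count in each of the ODD libraries and none elsewhere. The inhibitory transporter gene Slc32a1 was at 2.59 ± 0.416 FPKM and the GABA synthesis gene Gad2 at 2.29 ± 0.284, and both are used by V1 and V2b cells among others.

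The next comparison asked whether capture changed the level of the members relative to Input, and whether the Lhx1os probes differed from the control probes. Levels here are CPM, counts scaled by the TMM-adjusted size of each library, which compare 1 gene between libraries. Gata3 and Gata2 were lower in every pull-down library than in either Input library, also with LacZ probes. Taken 1 pull-down at a time, such a position was frequent. Of all genes tested, 22.1% lay below both Input libraries with LacZ probes, 21.0% with ODD and 20.0% with EVEN. The share of genes below Input in all 3 pull-downs together was not counted. No other member stood below Input in all 3 pull-downs, and none passed the test between the Lhx1os probes and LacZ.

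Gata3 stood at 31.7 and 42.2 CPM in Input, in the order replicate 1 and replicate 2 used throughout. Its LacZ libraries held 20.8 and 28.4 CPM, its ODD libraries 21.2 and 23.0, and its EVEN libraries 19.5 and 29.4. The 3 pull-downs overlapped each other, and none overlapped Input. Within an experiment, a pull-down held between 54.4% and 69.6% of the Gata3 level of its own Input, over all 6 pairs.

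Gata2 stood at 26.9 and 35.995 CPM in Input. Its LacZ libraries held 18.8 and 26.6 CPM, its ODD libraries 18.0 and 23.6, and its EVEN libraries 16.9 and 24.5. It followed Gata3, with LacZ replicate 2 lying just under Input replicate 1. Against the Input of the same experiment the pull-downs held between 63.0% and 74.0% of the Gata2 level. The ratio of Gata3 to Gata2 counts was between 0.972 and 1.20 over all 8 libraries.

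The main test was edgeR's quasi-likelihood test on all 8 libraries with group as the only term. For Gata3 it put the log2 fold change over Input at -0.59 with LacZ probes (SE 0.27, adjusted p 0.314), at -0.74 with ODD probes (SE 0.27, adjusted p 0.197) and at -0.60 with EVEN probes (SE 0.27, adjusted p 0.301). Those of Gata2 were -0.46 with LacZ probes (SE 0.29, adjusted p 0.482), -0.59 with ODD probes (SE 0.29, adjusted p 0.351) and -0.60 with EVEN probes (SE 0.29, adjusted p 0.333). None passed the threshold of 0.05 on p adjusted by the Benjamini-Hochberg method over all genes.

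With the experiment as a block, which sets each pull-down against the Input of its own replicate, Gata3 and Gata2 fell in all 3 comparisons. This fit of edgeR put Gata3 at -0.59 with LacZ probes (SE 0.15, adjusted p 0.0296), at -0.73 with ODD probes (SE 0.15, adjusted p 0.0141) and at -0.61 with EVEN probes (SE 0.15, adjusted p 0.028). It put Gata2 at -0.47, -0.59 and -0.61, each with an SE of 0.13, and at adjusted p 0.0374, 0.0164 and 0.0157, in the same order. The 3 comparisons share the Input libraries and are not independent of each other. Over the main fit and the 15 alternatives, both genes stayed below Input in each of the 3 comparisons. The adjusted p of Gata3 spanned 0.0296 to 0.635 with LacZ probes, 0.0141 to 0.487 with ODD and 0.028 to 0.61 with EVEN, and that of Gata2 spanned 0.0374 to 0.796, 0.0164 to 0.674 and 0.0157 to 0.642.

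The calls also depended on GC content, which for the longest transcript was 49.7% in Gata3 and 58.2% in Gata2. When the trend of each library on GC content was removed in the same block fit of edgeR, Gata3 was still called lower with ODD probes (-0.59, adjusted p 0.0243) and with EVEN probes (-0.49, adjusted p 0.045). With LacZ probes it then missed the threshold (-0.45, adjusted p 0.0602). Gata2 missed it in all 3, at -0.15, -0.29 and -0.30 with adjusted p 0.439, 0.143 and 0.135.

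Counted over the members, 0 of the 7 tested passed in either direction over Input by edgeR with group as the only term. At an unadjusted p under 0.05 there was 1, Gata3 with ODD probes, and DESeq2 and limma called 0. The background of this count was small for lower genes, at 0.43% of all genes tested for LacZ, 0.375% for ODD and 0.284% for EVEN, and larger for higher genes, at 6.98%, 6.46% and 5.37%. With the block, 2 of 7 members were called lower in each pull-down, against 7.0%, 6.55% and 6.41% of all genes, and 0 were called higher, against 12.7%, 12.6% and 12.8%. With the GC trend also removed, 0 were lower with LacZ probes, 1 with ODD and 1 with EVEN, against 8.59%, 8.12% and 7.58%, and 0 were higher, against 13.4%, 13.5% and 13.8%. With group alone, the median log2 fold change over the 7 members was -0.37 for LacZ, -0.43 for ODD and -0.60 for EVEN, beside -0.05, -0.03 and -0.0019 over all genes. With the block and the GC trend removed it was -0.15, -0.29 and -0.37, beside 0.04, 0.05 and 0.07 over all genes.

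Some marker genes of other cells moved in the same block fit of edgeR. Olig2, a progenitor factor, was called lower by 0.58 with LacZ probes, 0.57 with ODD and 0.59 with EVEN on the log2 scale, at adjusted p 0.0113, 0.0125 and 0.012. It was the only 1 of the 5 progenitor markers called, and 0, 1 and 1 of them had a positive change, in the same order. Sox10, a factor of oligodendrocytes and neural crest, had changes of -0.58, -0.65 and -0.60, at adjusted p 0.011, 0.00688 and 0.0109. Of the same list of astrocyte and oligodendrocyte markers, Mbp was called lower too, and Aldh1l1, the other gene of it tested, was not called. Chat was called higher by 0.69, 0.81 and 0.94, at adjusted p 0.00703, 0.00365 and 0.00246. It was the only one of the 7 motor neuron markers called, and in each comparison 3 of them had a positive and 4 a negative change, with medians of -0.08, -0.09 and -0.03. With the GC trend removed, Olig2 and Sox10 missed the threshold in all 3 and Chat did not. Slc5a7 was then called lower with LacZ probes (-0.45, adjusted p 0.0494) and ODD probes (-0.50, adjusted p 0.0332) and missed the threshold with EVEN probes (-0.36, adjusted p 0.0903), all by edgeR. These calls depended on the GC correction. The CPM of Slc5a7, which carry no such correction, were 15.9 and 50.2 in Input and 14.8 and 47.8 in LacZ. They were 12.6 and 49.99 in ODD and 14.9 and 51.2 in EVEN. The part of the cell mixture in the levels of Gata2 and Gata3 was not tested.

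**Figure D2:**
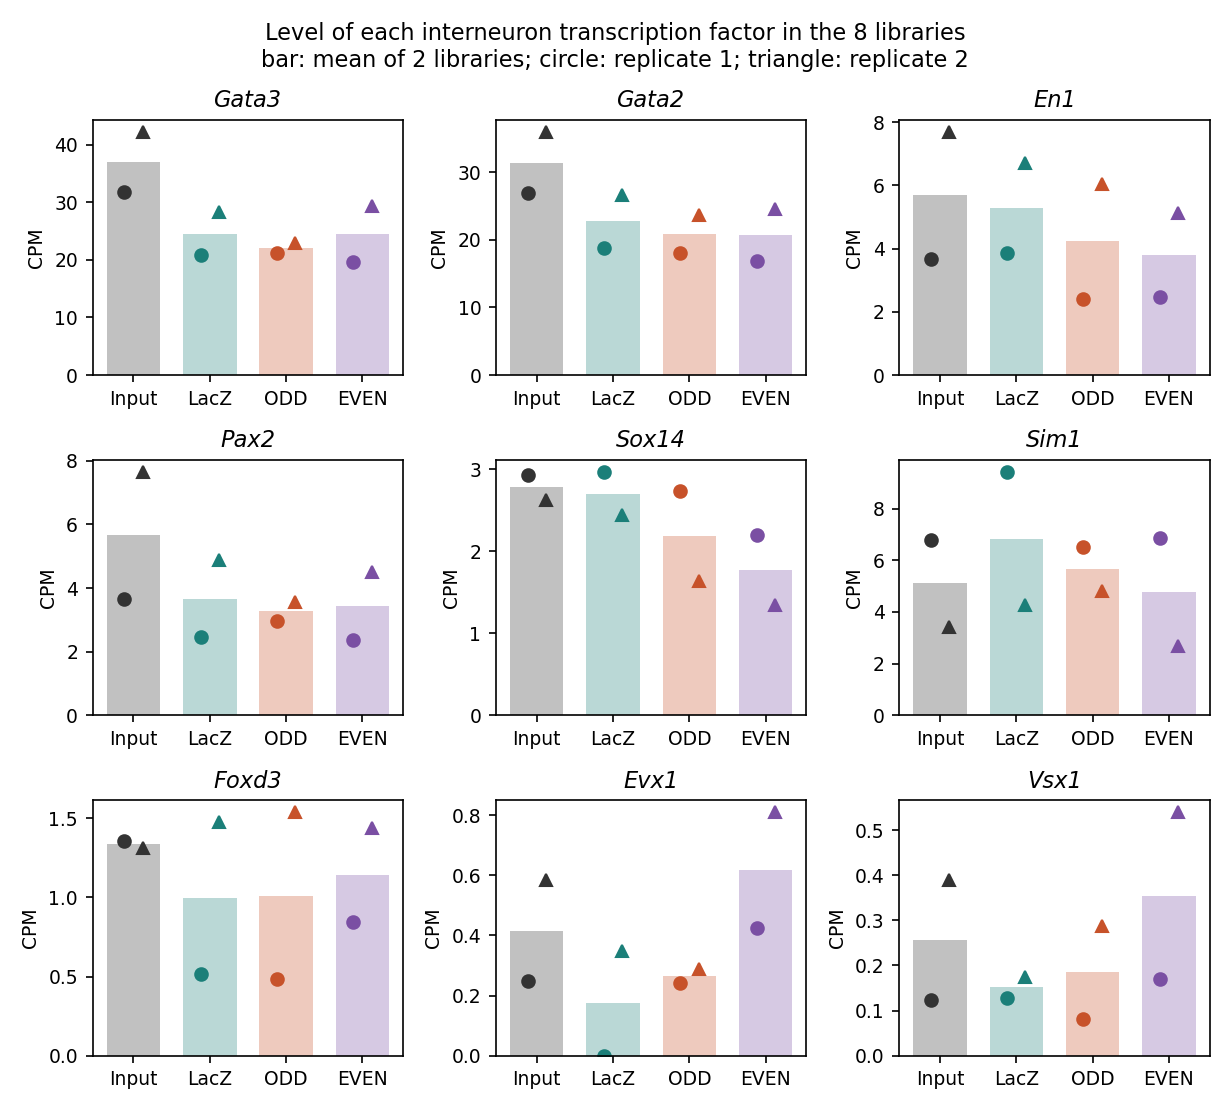
CPM of each interneuron factor in the 8 libraries, with a bar at the mean of 2 libraries, circles for replicate 1 and triangles for replicate 2; each panel has its own vertical axis from 0. For Gata3 and Gata2 all pull-down points lie below both Input points, while in most other panels the circles and triangles of a group lie further apart than the bars.

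No other member stood apart from Input in all 3 pull-downs. En1 was at 3.67 and 7.70 CPM in Input. Its LacZ libraries held 3.87 and 6.70 CPM, its ODD libraries 2.41 and 6.06, and its EVEN libraries 2.45 and 5.12. All 4 groups overlapped, and replicate 2 was the higher library in each. Its changes over Input were -0.09, -0.43 and -0.58 with LacZ, ODD and EVEN probes (SE 0.60, 0.61 and 0.61), at adjusted p 0.966, 0.812 and 0.697 by edgeR.

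Pax2 was at 3.67 and 7.65 CPM in Input. Its LacZ libraries held 2.45 and 4.87 CPM, its ODD libraries 2.98 and 3.56, and its EVEN libraries 2.37 and 4.49. Each pull-down was below the Input of its own experiment in 6 of 6 pairs, at 46.5% to 81.2%, and only the ODD libraries lay below both Input libraries. The changes of -0.60, -0.79 and -0.72 (SE 0.52, 0.52 and 0.51) had adjusted p 0.634, 0.508 and 0.534 by edgeR. With the block they were -0.60, -0.71 and -0.70, at adjusted p 0.15, 0.0957 and 0.0949.

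Sox14 was at 2.93 and 2.63 CPM in Input. Its LacZ libraries held 2.97 and 2.44 CPM, its ODD libraries 2.74 and 1.63, and its EVEN libraries 2.20 and 1.35. The EVEN libraries lay below both Input and both LacZ libraries, whereas LacZ and ODD overlapped Input. EVEN against Input gave -0.64 (SE 0.39, adjusted p 0.454) and EVEN against LacZ -0.59 (SE 0.41, adjusted p 1) by edgeR. The EVEN values rested on 26 and 15 counts.

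Sim1, alone among the 7 tested, had a positive fitted change with LacZ and ODD probes. It was at 6.80 and 3.41 CPM in Input. The LacZ libraries held 9.41 and 4.26 CPM, the ODD libraries 6.52 and 4.81, and the EVEN libraries 6.85 and 2.70. All groups overlapped, and the changes of 0.40, 0.15 and -0.10 (SE 0.58 in each) had adjusted p 0.808, 0.945 and 0.964 by edgeR. Its longest transcript has the lowest GC content of the set, 39.8%, where the others were between 49.7% and 65.1%. With the GC trend removed in the block fit of edgeR its changes were -0.11, -0.29 and -0.59, at adjusted p 0.789, 0.425 and 0.127, so its sign with LacZ and ODD probes depended on that correction.

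Foxd3 had few counts, with 33 and 27 in the Input libraries and 4 to 17 in a pull-down library. In replicate 1 the pull-downs held 37.9% (LacZ), 35.5% (ODD) and 62.2% (EVEN) of the Input level, and in replicate 2 they held 113%, 117% and 109%. The experiments thus disagreed on the direction, and all pull-downs overlapped Input.

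Evx1 and Vsx1 were near the limit of detection. Evx1 was counted 6 and 12 times in Input. In LacZ it had 0 and 4 counts; its ODD libraries held 3 and 3, and its EVEN libraries 5 and 9. The count of 0 in LacZ replicate 1 allows a level of up to 0.387 CPM (3 counts, counting error only), which is above the 0.247 CPM of Evx1 in Input replicate 1. The EVEN libraries lay above both LacZ libraries. Vsx1 was counted 3 and 8 times in Input. With LacZ probes 1 and 2 counts were found; its ODD libraries held 1 and 3, and its EVEN libraries 2 and 6. A difference in either gene was not detectable at this depth.

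Set directly against the control probes, 0 of 7 members passed with ODD or EVEN probes by edgeR, and 0 had an unadjusted p under 0.05. Limma called 0 in both, and DESeq2 called 0 with ODD probes and gave no adjusted p for any member with EVEN probes. The share of all genes called was 0.0% in each direction, so this test called not even the captured RNA. Lhx1os, with a mean of 2.25 CPM in LacZ, 108 in ODD and 87.5 in EVEN, had changes of 5.57 and 5.27 over LacZ (SE 1.15 and 1.13), at unadjusted p 0.00184 and 0.00237 and at adjusted p 1 in both by edgeR. DESeq2 called it with ODD probes (adjusted p 4.19e-07). The missing calls against LacZ therefore do not show that the members were at the same level, and the intervals of the differences carry the comparison. These intervals come from the fit with group as the only term, which does not pair libraries by experiment. Gata3 differed from LacZ by -0.16 on the log2 scale with ODD probes, and the 95% interval of the difference ran from -0.81 to 0.49, or 57.2% to 141% of the LacZ level. With EVEN probes the difference was -0.01, with an interval from -0.66 to 0.64. Those of Gata2 were -0.13, with an interval from -0.82 to 0.56, and -0.14, with one from -0.83 to 0.56. The other intervals were wider, such as -1.65 to 1.14 for Sim1 with ODD probes, so larger differences in those genes could have gone undetected. Both comparisons share the LacZ libraries.

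By ranges alone, 2 of 9 members had both libraries below both Input libraries with LacZ probes, 3 with ODD and 3 with EVEN, against 22.1%, 21.0% and 20.0% of the genes tested. These were Gata3 and Gata2 in all 3, with Pax2 in ODD and Sox14 in EVEN. None lay above Input, against 23.1%, 23.6% and 25.4%. Relative to LacZ, 0 members were below with ODD probes and 1 with EVEN (Sox14), against 7.43% and 8.94%. Above LacZ lay 0 with ODD and 1 with EVEN (Evx1), against 8.28% and 9.88%. The counts of 2 or 3 in 9 are near these shares of all genes.

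**Figure D3:**
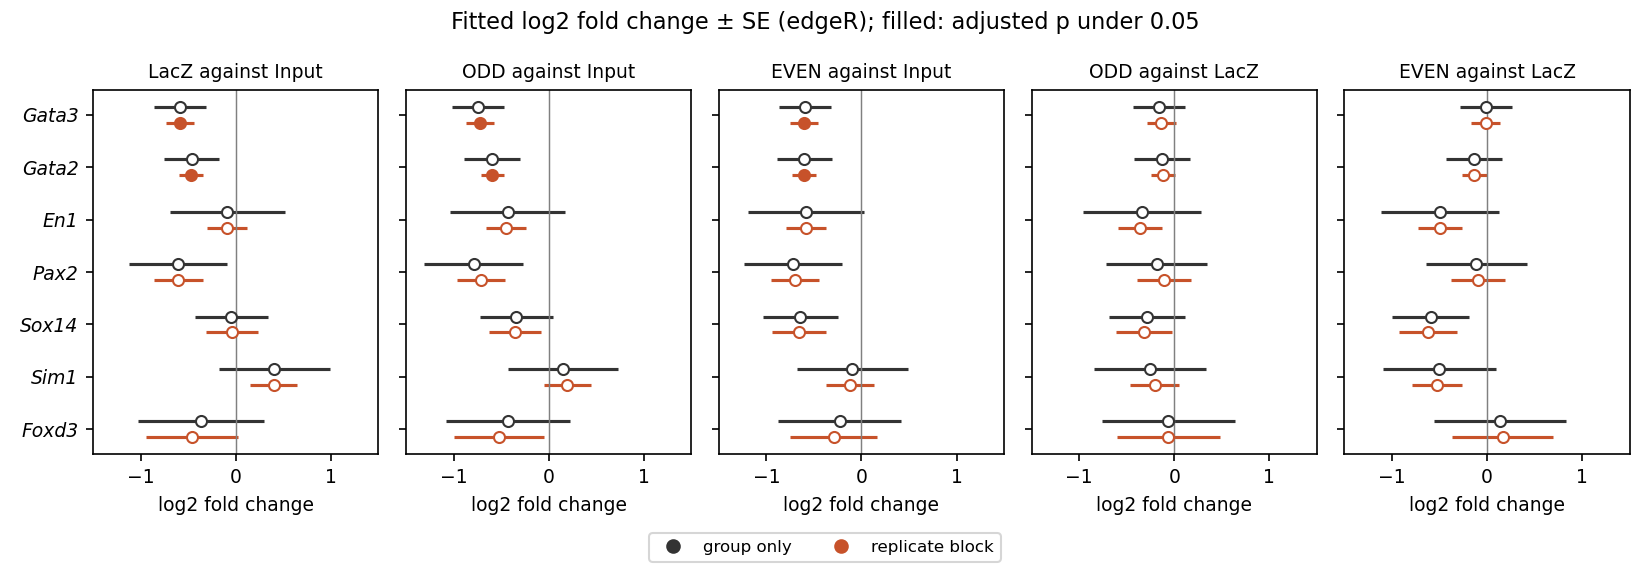
Fitted log2 fold change with its standard error for the 7 members tested, in 5 comparisons, from edgeR with group alone (dark) and with the replicate as a block (orange); filled points have an adjusted p under 0.05. Gata3 and Gata2 are filled in the block fit over Input in LacZ, ODD and EVEN, and no point is filled against LacZ.

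Of the 27 tested genes of the wider list, 0 were called over Input or over LacZ by edgeR with group as the only term, with 1 at an unadjusted p under 0.05 over Input in each pull-down and 0 over LacZ. DESeq2 and limma called 0 as well, with no adjusted p from DESeq2 in EVEN against LacZ. With the block, 2 of the 27 were called lower in each of the 3 comparisons with Input, where 7.0%, 6.55% and 6.41% of all genes were, and 0 higher, against 12.7%, 12.6% and 12.8%. A count of 2 is near the share of all genes. They included Nkx2-2, at -0.83 in LacZ, -0.83 in ODD and -0.79 in EVEN (adjusted p 0.0236, 0.0242 and 0.0293 by edgeR). With the GC trend also removed Nkx2-2 was not called. Calb1, a calcium-binding protein of some V1 cells, was then called lower in LacZ (-1.52, adjusted p 0.00418) and ODD (-1.12, adjusted p 0.0117). Both Calb1 calls depended on the GC correction. Uncorrected, replicate 1 showed Calb1 CPM of 2.88 (Input), 2.45 (LacZ), 3.30 (ODD), 4.23 (EVEN). For replicate 2 the values were 8.38, 5.66, 6.73, 10.9, listed the same way. EVEN thus lay above the Input of its own experiment in both replicates, while ODD did so only in replicate 1. The median log2 fold change of the 27 genes with group alone was -0.26 in LacZ, -0.28 in ODD and -0.13 in EVEN. Over all genes it was -0.05, -0.03 and -0.0019. With the block and the GC trend removed, the median of the 27 was 0.0038, -0.08 and -0.05, in the same order. That of all genes was then 0.04, 0.05 and 0.07, so the lower medians of the list were smaller after that correction.

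Genes that overlap a member or start within 10 kb of it were listed, since reads of a partner on the other strand cannot be told apart from the member's own unless counting used strand, a setting not given in the sources used here. They numbered 11, and 4 of them had no count. The lincRNA Gm38708, which starts 3210 bases from the Gata2 start on the other strand, was counted 5 and 8 times in Input and from 2 to 16 times in a pull-down. It shares no exon with Gata2. Over the pooled totals this was 0.288 CPM in Input and 0.845 in the pull-downs together, where Gata2 was lower in the pull-downs. The Gata3 neighbour 4930412O13Rik, on the other strand within the Gata3 locus, had 3 counts in Input and 21 in the pull-downs together, or 0.0665 and 0.323 CPM. Evx1os, antisense to Evx1, shares 73 exon bases with it and had 5 counts in Input and 16 in the pull-downs, so the few reads of Evx1 are uncertain to that extent. Another gene, 9230102O04Rik, shares 77 exon bases with Gata3 and had 46 counts over the 8 libraries, beside 161 to 867 counts of Gata3 in each. Gm13256, antisense to Gata3 with 155 shared exon bases, had 1 count in all. These neighbours have too few counts for a test of each.

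The third comparison set the experiments side by side. The libraries of 1 experiment were treated as sharing their cells, so this is 1 culture against another and has no test. Within each group the log2 ratio of replicate 2 to replicate 1 was taken, after adding 0.5 counts. En1, Gata2, Gata3, Pax2, Evx1 and Vsx1 were higher in replicate 2 in all 4 groups, and Sim1 and Sox14 were lower in all 4. For Evx1 and Vsx1, which did not pass the filter, the direction is not secure. Evx1 had 3 and 3 counts in ODD, where its ratio of 0.26 reflects library size alone, and Vsx1 had 1 and 2 counts in LacZ. Foxd3 was higher in 3 and lower in Input. Of all genes tested, 24.9% were higher in all 4 groups and 21.0% lower, so agreement over groups is frequent. None of the 9 members differed by a log2 ratio of at least 1 in all 4 groups in either direction, against 1.91% of genes higher and 1.31% lower.

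En1 was 2.07-fold higher in replicate 2 (mean log2 ratio 1.05 ± 0.219, SD over 4 groups, range 0.78 to 1.31). Pax2 was 1.74-fold higher (0.80 ± 0.366) and Gata2 1.38-fold (0.46 ± 0.0663). Gata3 was 1.31-fold higher (0.39 ± 0.197), with its lowest ratio, 0.12, in ODD. The smallest spread over groups among the members was that of Gata2.

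Sim1 went the other way. It was 1.96-fold higher in replicate 1 (mean log2 ratio -0.97 ± 0.386, range -1.33 to -0.43), and Sox14 was 1.38-fold higher there (-0.46 ± 0.286). The contrast does not depend on scaling, since it is seen in ratios of counts within a library. The ratio of En1 to Sim1 counts was between 0.358 and 0.539 in the replicate 1 libraries and between 1.26 and 2.26 in replicate 2. That of Sim1 to Gata2 was 0.253 to 0.5 in replicate 1 and 0.0947 to 0.203 in replicate 2. Neither pair of ranges overlapped.

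Other genes of the same classes were read beside them. Nkx2-2, the V3 progenitor factor, was 3.3-fold higher in replicate 1 (-1.72 ± 0.356), the direction of Sim1. Uncx, listed with it, was lower in replicate 2 in all 4 groups by a mean of -0.26. Tal1 was 1.28-fold higher in replicate 2 (0.36 ± 0.200), close to Gata3. Sp8, seen in a subset of V1 cells, was 2.39-fold higher in replicate 2 (1.26 ± 0.0693), while Lhx1 differed by only 0.08 ± 0.0744. Of the 27 tested genes of the wider list, 12 were higher in replicate 2 in all 4 groups and 9 lower, beside the 24.9% and 21.0% of all genes.

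Genes of other cell types differed between the cultures as well. The motor neuron list was higher in replicate 2 in all 4 groups for 6 of its 7 genes, with a summed level of 70.2 to 74.7 FPKM in replicate 1 and 110 to 122 in replicate 2. Chat was 2.89-fold and Isl1 2.04-fold higher in replicate 2, and Mnx1 was the exception at 0.05 ± 0.306. The progenitor list was lower in replicate 2 in all 4 groups for 4 of 5 genes, with a summed level of 366 to 481 FPKM in replicate 1 and 259 to 325 in replicate 2. Of the astrocyte and oligodendrocyte list, Sox10 and Mbp were lower in replicate 2 by 2.14 ± 0.0896 and 2.63 ± 0.0522 on the log2 scale, while Aldh1l1, an astrocyte gene at 21.1 ± 5.65 FPKM in Input, was higher in 2 groups and lower in 2 (-0.17 ± 0.306). The summed level was 98.0 to 138 FPKM in replicate 1 and 35.3 to 40.9 in replicate 2. Aqp4 and Gfap, which define mature astrocytes, had between 0 and 16 counts in any library, and Gfap was higher in replicate 2 in all 4 groups on these counts. The list of pluripotent and non-neural markers had a summed level of 4.04 to 9.71 FPKM in replicate 1 and 4.84 to 5.67 in replicate 2, nearly all of it from Col1a1. Nkx2-2 is used by oligodendrocyte precursors as well as by V3 progenitors. Its part, and that of the cell mixture, in the difference of Sim1 and En1 between cultures was not tested.

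**Figure D4:**
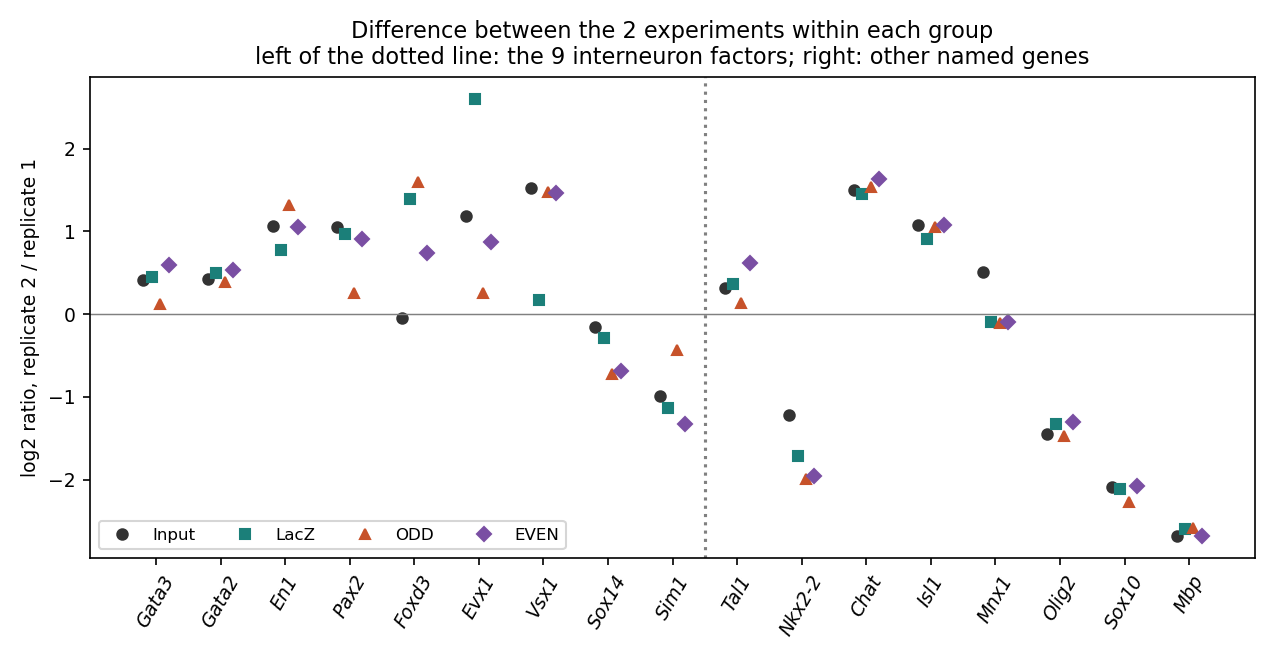
Log2 ratio of replicate 2 to replicate 1 within each of the 4 groups (symbols) for the 9 interneuron factors, left of the dotted line, and for other named genes, right of it. En1, Pax2, Gata2 and Gata3 lie above 0 in every group and Sim1 and Sox14 below 0, beside Chat and Isl1 above and Nkx2-2, Olig2, Sox10 and Mbp below.

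Across the 8 libraries, Gata3, Gata2, En1 and Pax2 varied together and Sim1 against them. Pearson's r on log2(CPM + 1) was 0.963 between Gata3 and Gata2, 0.943 between Gata2 and Pax2 and 0.929 between Gata3 and Tal1. For En1 it was lower, at 0.702 with Gata3, 0.842 with Gata2 and 0.825 with Pax2. Between Sim1 and each of Gata3 (-0.651), Gata2 (-0.660), En1 (-0.685) and Pax2 (-0.797) it was negative. These are descriptions over libraries that share cultures and Input. High values were not particular to these pairs: 359 of 12559 genes with a mean count of at least 50 had r above 0.9 with Gata2. No such count was made for negative values. The gene whose levels were most like those of Gata2 was Shisa7 (r 0.993). For Gata3 it was Dusp3 (0.986), for En1 Phc1 (0.988), for Pax2 Rhou (0.983) and for Sim1 Ldlrad4 (0.966).

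Because Gata2 and Gata3 moved together and Sim1 apart from them, their start regions are printed for comparison, as 300 bases of GRCm38.p6 from RefSeq, from 250 before to 50 after the annotated start, in the direction of the gene. Capitals mark CANNTG, the E-box read by bHLH factors such as Tal1, searched on both strands, which are identical for this motif.
Gata3, chr2:9878551-9878850, minus strand: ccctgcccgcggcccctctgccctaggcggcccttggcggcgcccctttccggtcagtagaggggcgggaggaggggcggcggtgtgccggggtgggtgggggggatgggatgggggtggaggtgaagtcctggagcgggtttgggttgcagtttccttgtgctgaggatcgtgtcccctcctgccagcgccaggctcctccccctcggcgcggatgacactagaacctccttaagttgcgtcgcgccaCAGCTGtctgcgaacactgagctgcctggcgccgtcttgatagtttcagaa
Gata2, the downstream of its RefSeq starts, chr6:88198414-88198713, plus strand: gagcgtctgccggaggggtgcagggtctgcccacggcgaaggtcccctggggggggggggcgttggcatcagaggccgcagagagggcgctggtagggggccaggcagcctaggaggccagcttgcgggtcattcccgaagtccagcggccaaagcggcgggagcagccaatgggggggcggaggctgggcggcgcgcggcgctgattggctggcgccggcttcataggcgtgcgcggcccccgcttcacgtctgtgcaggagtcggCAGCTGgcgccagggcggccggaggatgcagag
Sim1, chr10:50895401-50895700, plus strand: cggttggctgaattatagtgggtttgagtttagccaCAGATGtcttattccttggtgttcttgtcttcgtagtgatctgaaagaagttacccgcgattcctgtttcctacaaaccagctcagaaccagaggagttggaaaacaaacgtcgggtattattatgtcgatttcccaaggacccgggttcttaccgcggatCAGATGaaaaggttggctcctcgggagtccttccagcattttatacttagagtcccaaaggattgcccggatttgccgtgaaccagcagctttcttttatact
The windows of Gata3 and of this Gata2 start each held 1 E-box and that of Sim1 held 2, while the window of the upstream Gata2 start held 0. Of all 32851 start regions of this length, 72.3% held at least 1, so its presence here is ordinary. Their GC content was 67.3%, 73.7% and 46.0%. GATAA, 1 form of the site read by GATA factors, was searched on both strands. It was found in none of the windows of Gata2, Gata3 and Sim1, where 25.4% of all start regions held it. Other forms were not searched, and the Gata3 window holds GATAG near its end, so a GATA site is not excluded.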

How the data were processed

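The authors deposited whole-number read counts per Ensembl gene, with a gene length in bases, and FPKM values, for 8 libraries of total RNA made with a stranded kit that depletes ribosomal RNA. The submitters' processing notes name cutadapt 3.2, Bowtie2 2.4.2, Picard, HTSeq 0.13.5 and GRCm38, without roles. Deposited FPKM matched count over length and column total (largest relative difference 6.66e-14). Positions and transcripts came from GENCODE M21, in which 99.1% of the 55230 identifiers found had the deposited length.

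The main test was edgeR 4.0.16 in R 4.3.3 (quasi-likelihood, TMM, default filter by group, 16524 genes, two-sided). CPM used TMM-scaled library sizes. Members and lists were chosen with earlier results of these data known. Named genes were the members, their annotated neighbours within 10 kb, the gene with the highest r to each member with a mean count of at least 50, and, of the wider list, those called in any comparison and the 3 highest in Input. Other genes were named as context after their values were seen. Some genes of the wider list are not reported here.

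Alternatives were DESeq2 1.42.0, RLE scaling, no filter (28192 genes), 50 counts in 2 libraries (13320 genes), the replicate block, the block with each library's GC trend removed (natural spline, 5 degrees of freedom, 16508 genes), limma 3.58.1 on log2(FPKM + 1), and leaving out each library. The replicate number is labelled as a batch, and libraries of the same number deviated together from their group means (r 0.517 to 0.719), so the numbers pair libraries. Replicates of a group differed beyond counting noise (chi-square per degree of freedom 32.8 to 66.9). P-values measure the spread between these libraries, and the floor of 3 counts covers counting error only.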

Additional observations from a re-analysis of the deposited data

How the results depend on the processing

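The calls depended on the pairing of libraries. With the replicate block, 2 members (Gata3 and Gata2) and 2 genes of the wider list (Nkx2-2 among them) were called with each of LacZ, ODD and EVEN against Input, where the fit without the block called 0. With the block and the GC trend removed, 1 member (Gata3) was called in ODD and 1 in EVEN, and 1 gene of the wider list (Calb1) in LacZ and 1 in ODD. The block changed no other call on the members or the wider list. No other alternative, leaving out any library included, called a member or a gene of the wider list in any of the 5 comparisons, except that DESeq2 gave no adjusted p in EVEN against LacZ. Ranked by CPM in place of FPKM, Pax2 came 4th, Sim1 5th and Sox14 6th (values 4, 5 and 6), since CPM takes no account of length.

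Of 520 alternative values over 35 fitted changes of members, 468 kept their direction and side of the threshold (for 7 of them, DESeq2 in EVEN against LacZ, by direction alone), 8 newly passed it and 44 changed sign, none of the latter past the threshold. Leaving out 1 library gave 37 of the sign changes, over 23 fitted changes. The others were, with the GC trend removed, En1 (0.224), Sox14 (0.261) and Sim1 (-0.107) in LacZ against Input, Sim1 (-0.292) in ODD against Input and Foxd3 (0.00455) in EVEN against Input, with 50 counts in 2 libraries Sox14 in LacZ against Input (0.0174), and without a filter Gata3 in EVEN against LacZ (0.00161). The cause was not tested. Foxd3 did not pass the filter of 50 counts.

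Log2 fold changes without 1 library spanned ranges on both sides of 0 for 23 of the 35 fitted changes. For LacZ against Input they were -0.553 to 0.528 for En1, -1.2 to 0.00761 for Pax2, -0.199 to 0.0903 for Sox14, -0.272 to 0.983 for Sim1 and -1.36 to 0.135 for Foxd3. For ODD against Input they were -1.23 to 0.188 for En1, -0.271 to 0.725 for Sim1 and -1.46 to 0.193 for Foxd3. For EVEN against Input they were -1.21 to 0.0336 for En1, -0.928 to 0.48 for Sim1 and -0.661 to 0.0971 for Foxd3. For ODD against LacZ they were -0.36 to 0.0875 for Gata3, -0.353 to 0.145 for Gata2, -1.14 to 0.185 for En1, -0.576 to 0.411 for Pax2, -0.716 to 0.0262 for Sox14, -0.73 to 0.413 for Sim1 and -1.09 to 0.933 for Foxd3. For EVEN against LacZ they were -0.33 to 0.258 for Gata3, -0.426 to 0.137 for Gata2, -0.642 to 0.481 for Pax2, -1.33 to 0.167 for Sim1 and -0.374 to 1.13 for Foxd3. The other 12 kept their sign. Over Input, Gata3 spanned -0.835 to -0.376 in LacZ, -0.943 to -0.534 in ODD and -0.925 to -0.337 in EVEN, and Gata2 spanned -0.742 to -0.247, -0.806 to -0.377 and -0.898 to -0.363. Pax2 spanned -1.23 to -0.178 in ODD and -1.26 to -0.109 in EVEN, and Sox14 -0.77 to -0.0271 and -1.05 to -0.342. In EVEN against LacZ, En1 spanned -1.11 to -0.0341 and Sox14 -0.99 to -0.286. A group left with 1 library was assumed to vary like the others. Depth limits Evx1, Vsx1 and Foxd3 most, with at most 33 counts in a library.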

Other observations

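The genes that mark the transmitter of an interneuron also differed between the cultures, each compared as replicate 2 over replicate 1 within the 4 groups. Gad1 and Gad2, which make GABA, were higher in replicate 2 in all 4 groups, by a mean log2 ratio of 0.86 ± 0.463 and 0.49 ± 0.1955 (SD over 4 groups). Slc6a5, the glycine transporter gene of inhibitory spinal neurons, was lower in replicate 2 in all 4 (-0.54 ± 0.373), as was Slc17a6, a glutamate transporter gene (-0.75 ± 0.437). Slc32a1, the vesicular transporter gene for GABA and glycine, was higher in 1 group and lower in 3 (0.03 ± 0.374).

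Of the dorsal classes, Wt1, a factor of dI6 cells, was higher in replicate 2 in all 4 groups by 1.39 ± 0.198, on 4 to 25 counts a library. Olig3, a factor of dorsal progenitors, was lower in all 4 by 1.54 ± 0.759, on 2 to 36 counts a library. These are values of 1 culture beside another, with no test.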
